A study of Oryza sativa with 36 samples.

Results

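The 10 genes described here take up inorganic nitrogen in the rice plant and build the first amino acids from it. They were chosen by identifier from the count and FPKM tables (FPKM is a level per gene length and library size), which list 55986 genes. They are NIA1 (LOC_Os08g36480) and NIA2 (LOC_Os08g36500) on chromosome 8, NiR (LOC_Os01g25484) and NADH-GOGAT1 (LOC_Os01g48960) on chromosome 1, and GS1;1 (LOC_Os02g50240) on chromosome 2. The others are GS1;2 (LOC_Os03g12290) and AS1 (LOC_Os03g18130) on chromosome 3, GS2 (LOC_Os04g56400) and AMT1;1 (LOC_Os04g43070) on chromosome 4, and Fd-GOGAT (LOC_Os07g46460) on chromosome 7. The names are those paired with the identifiers when the genes were chosen, and the chromosome was read from the identifier. All 10 had counts in every library and all 10 passed the filter on low counts that left 26374 genes for testing.

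RNA-seq was run on leaves of the japonica rice TNG67 at tillering. The labels give 8 groups of plants that came from calli, here called regenerated: PB, AMT+Hb, AMT+Ab, AgBi, AgTi, Ag, Callus+AM and Callus. The reference plants, Seedling, were grown directly from seed. Each of the 9 groups had 2 libraries labelled as biological replicates, 18 in all. The labels say that the calli went through different combinations of transformation treatments, and do not spell out AM, Ag, Ti, Bi, AMT, Ab, Hb or PB. The AMT of the group names is not to be read as the ammonium transporter gene AMT1;1. All plants were kept in a greenhouse under natural light. RNA was taken with one of 2 reagents, and the labels do not say which library had which. Leaf identity could not be checked with marker genes, because the files pair no identifier with a name. The series' bisulfite samples were not used here.

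Plants reduce nitrate to nitrite in the cytosol with nitrate reductase (NIA genes) and nitrite to ammonium in the plastid with nitrite reductase (NiR). Glutamine synthetase (GS) joins ammonium to glutamate, and glutamate synthase (GOGAT) turns the resulting glutamine back into glutamate. In leaves, the plastid enzymes GS2 and Fd-GOGAT also recapture the ammonium that photorespiration sets free. The cytosolic GS1 enzymes and NADH-GOGAT are better known for roots, vascular tissue and the reuse of nitrogen. AS1 encodes an asparagine synthetase, which makes asparagine for nitrogen transport and storage, and AMT1;1 encodes an ammonium transporter of the plasma membrane.

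Sequencing was deeper in Callus and Seedling, at 41582054 to 52643973 counts per library, than in the remaining 7 groups, at 26609812 to 33222427. A count of 3 corresponded to 0.057 to 0.113 CPM (a count as a share of its library's total) before scaling. For those 7 groups, depth and group cannot be told apart against Seedling, while Callus and Seedling are alike in depth. Levels are given as CPM scaled with TMM factors (trimmed mean of M values), which were 0.831 to 1.24 in the regenerated libraries and lowest in Seedling, at 0.693 and 0.72. With library totals alone, the median log2 fold change of all genes against Seedling was 0.632, against 0.068 with TMM. The Callus+AM libraries were 3.72-fold or more apart at 4 of the 10 genes. Replicate 2 was 22.7-fold higher than replicate 1 for NIA1, 11-fold for NiR and 200-fold for AS1, and replicate 1 was 3.72-fold higher for AMT1;1. Other groups also had such pairs. For AS1 the libraries were 14.3-fold apart in AgTi, 11.1-fold in AMT+Hb, 8.64-fold in Ag and 3.74-fold in Callus. For NIA1 they were 5.82-fold apart in AgBi.

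Set against seed-grown plants, regenerated plants had leaves with less RNA of the nitrate-reducing, glutamine-making and ammonium-transporting genes, and with more of NADH-GOGAT1 and AS1. Of the 10 genes, 5 were lower (NIA1, NiR, GS1;1, GS2 and AMT1;1) and 2 were higher when the equal-weight mean of all 8 regenerated groups was tested against Seedling. These calls use edgeR's quasi-likelihood test with Benjamini-Hochberg adjustment over all genes tested, at adjusted p below 0.05. Over all genes tested the same rule called 20.5% lower and 17.1% higher. The median log2 fold change of the 10 genes was -0.98, against 0.07 over all genes. NIA2, GS1;2 and Fd-GOGAT did not pass. In leaf RNA, fewer cells of a type and less RNA per cell cannot be told apart.

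**Figure D1:**
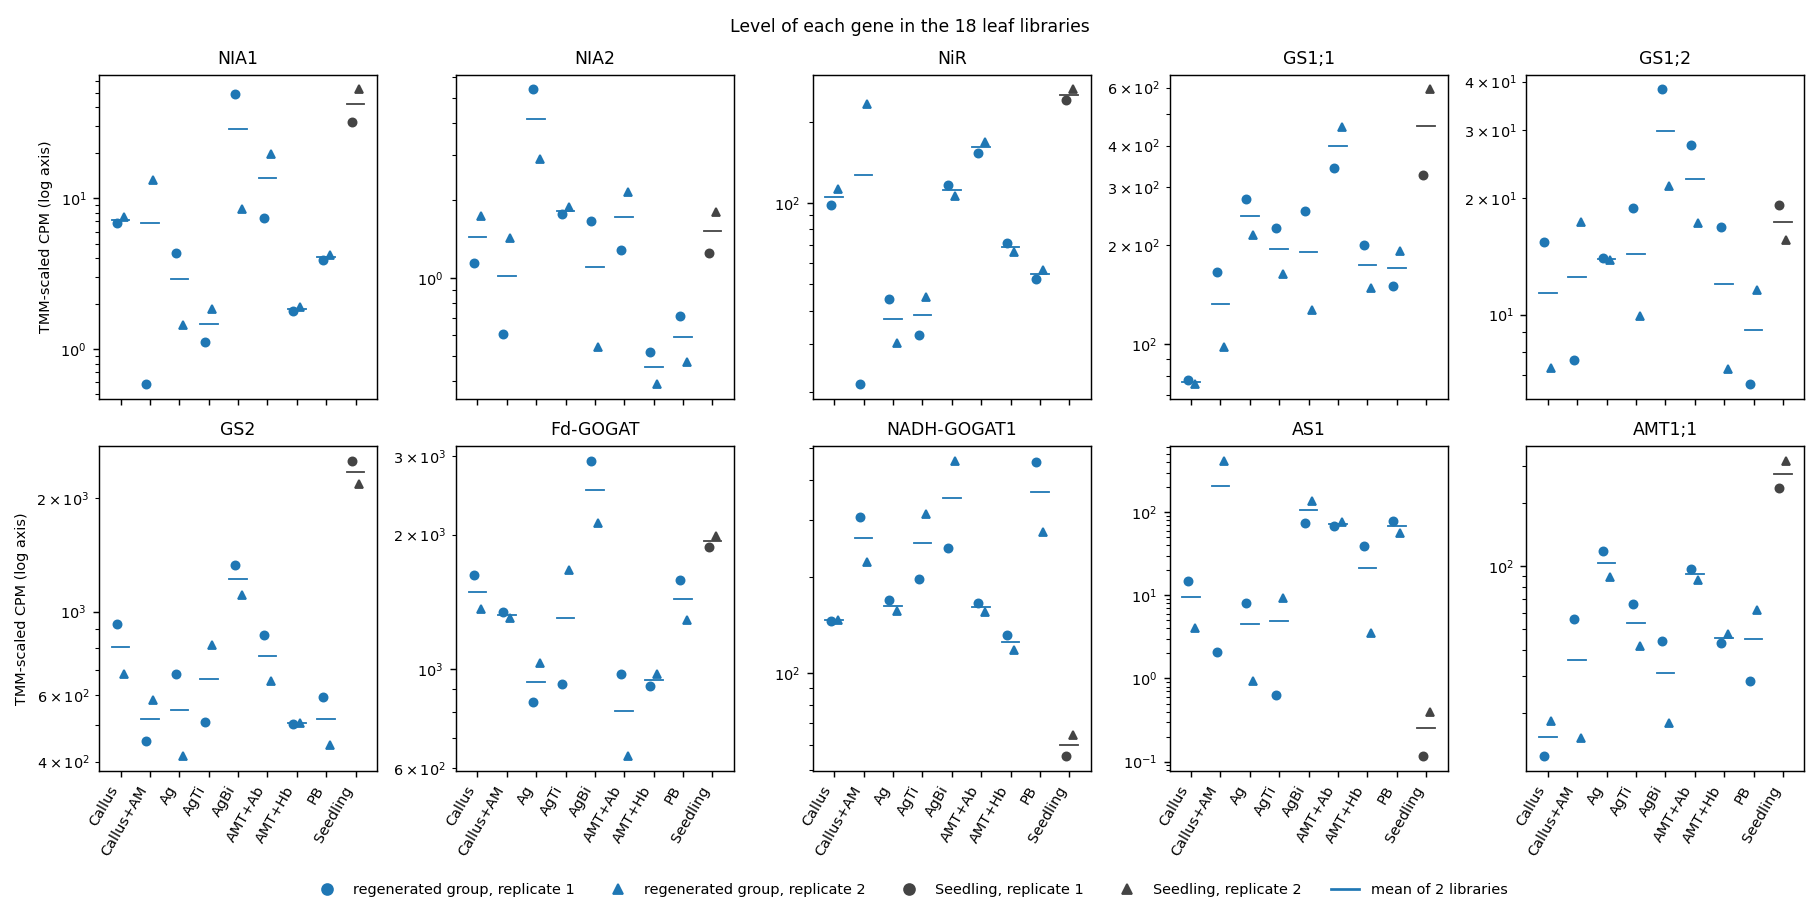
TMM-scaled CPM (log axis) of each of the 10 genes in the 18 leaf libraries, by group, with circles for replicate 1, triangles for replicate 2 and a line at the mean of the 2 libraries. GS2, NiR and AMT1;1 lie below both Seedling libraries in all 16 regenerated libraries, and NADH-GOGAT1 and AS1 lie above both.

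RNA for the reduction of nitrate was lower at both of its steps, through NIA1 and NiR. NIA1, the nitrate reductase gene with the higher FPKM of the pair in Seedling, ranged over the 16 regenerated libraries between 0.582 and 49 CPM with a median of 4.27 CPM, against 31.9 and 52.6 CPM in the Seedling libraries. Of the 16, 15 lay below both Seedling libraries, and AgBi replicate 1, at 49 CPM, lay between them. The log2 fold change came to -3.00 (SE 0.608, edgeR adjusted p = 0.00234), or 7.99-fold lower. Levels of NIA1 also spread widely among the groups. AgBi held 49 and 8.42 CPM, AMT+Ab 7.37 and 19.7 CPM, and Callus+AM 0.582 and 13.2 CPM. Callus held 6.81 and 7.48 CPM, PB 3.91 and 4.18 CPM, and Ag 4.36 and 1.45 CPM. AMT+Hb, at 1.78 and 1.9 CPM, and AgTi, at 1.12 and 1.83 CPM, were the lowest by their means.

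Tested one group at a time, NIA1 was lower in AgTi (log2 fold change -4.84), AMT+Hb (-4.52), Ag (-3.87) and PB (-3.38), with edgeR adjusted p between 0.0101 and 0.0324. It did not pass in Callus (-2.56, adjusted p = 0.119), Callus+AM (-2.62, adjusted p = 0.0835), AMT+Ab (-1.64, adjusted p = 0.248) or AgBi (-0.56, adjusted p = 0.716). Over all genes, too, fewer calls were made without either Seedling library, in each group and over all 8. Each of the 4 NIA1 calls ended without 1 library or another. Here and below, only libraries of the groups compared were left out. That of AgTi ended without AgTi replicate 1 or 2 (edgeR adjusted p 0.0618 to 0.0947), that of AMT+Hb without Seedling replicate 2 or either AMT+Hb library (0.0528 to 0.0983), that of Ag without Seedling replicate 2 or either Ag library (0.0659 to 0.133), and that of PB without any 1 of the 4 libraries compared (0.0634 to 0.145). The call over all 8 groups ended without Seedling replicate 2, where the log2 fold change was -2.59 (edgeR adjusted p = 0.0559). Without Callus+AM replicate 2, Callus+AM stood at -6.16 (edgeR adjusted p = 0.00596).

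NIA2, the neighbouring nitrate reductase gene by identifier, was low in all leaves, and its regenerated libraries overlapped Seedling. It ranged between 0.386 and 5.38 CPM (median 1.36 CPM) in the regenerated libraries, against 1.25 and 1.8 CPM in Seedling (log2 fold change -0.30, SE 0.424, edgeR adjusted p = 0.619). Its highest libraries were those of Ag, at 5.38 and 2.89 CPM, and its lowest were those of AMT+Hb, at 0.518 and 0.386 CPM. AMT+Hb was the only group with a call against Seedling (log2 fold change -1.74, edgeR adjusted p = 0.0439), which ended without any 1 of the 4 libraries compared (0.0728 to 0.185). NIA1 and NIA2 are closely related in sequence, and reads that fit both could have been assigned to either.

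NiR, the next enzyme, had a median of 68.6 CPM in the regenerated libraries. Its extremes there were the 2 Callus+AM libraries, at 21.3 CPM (replicate 1) and 233 CPM (replicate 2). The Seedling libraries held 241 and 264 CPM, so all 16 regenerated libraries lay below both. The log2 fold change came to -1.70 (SE 0.433, edgeR adjusted p = 0.00878), or 3.26-fold lower. Among the 26374 genes tested, 10.6% had all 16 regenerated libraries below both Seedling libraries, and 9.23% had all 16 above. AMT+Ab, at 154 and 169 CPM, came nearest to Seedling among the groups whose libraries lay close together. AgBi held 117 and 106 CPM, Callus 98.1 and 113 CPM, AMT+Hb 71.2 and 66 CPM, and PB 52.5 and 56.5 CPM. Ag, at 44.1 and 30.4 CPM, and AgTi, at 32.4 and 44.9 CPM, were lowest and overlapped each other.

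By group, NiR was lower in Ag (log2 fold change -2.76), AgTi (-2.71) and PB (-2.21), with edgeR adjusted p between 0.0123 and 0.0262. AMT+Hb missed the threshold (-1.88, adjusted p = 0.0515), and Callus did not pass (-1.26, adjusted p = 0.222). The Ag call ended without either Ag library (edgeR adjusted p 0.057 to 0.0782), the AgTi call without Seedling replicate 2 or either AgTi library (0.0506 to 0.108), and the PB call without any 1 of the 4 libraries compared (0.0698 to 0.122). Over all 8 groups, the call ended without Seedling replicate 1 or 2 (0.0571 to 0.0845). Callus+AM replicate 2 decided the Callus+AM value. With both libraries the log2 fold change of NiR over Seedling was -0.99 (edgeR adjusted p = 0.283), and without replicate 2 it was -3.56 (edgeR adjusted p = 8.8e-05).

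Across the 18 libraries the levels of NIA1 and NiR ran together, with a Spearman rho of 0.905 on log2 CPM. Of 26373 other genes ranked by likeness to NIA1, NiR stood at rank 16, and NIA1 stood at rank 17 for NiR. The gene most like NIA1 outside the 10 was LOC_Os08g04180 (rho = 0.953), and the one most like NiR was LOC_Os02g51080 (rho = 0.963). These values are descriptive, since the 18 libraries share 9 groups and the 2 Seedling libraries are high for both genes. Callus+AM replicate 1, the lowest library for both genes, and Seedling replicate 2, the highest for both, mark the ends of the range.

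**Figure D2:**
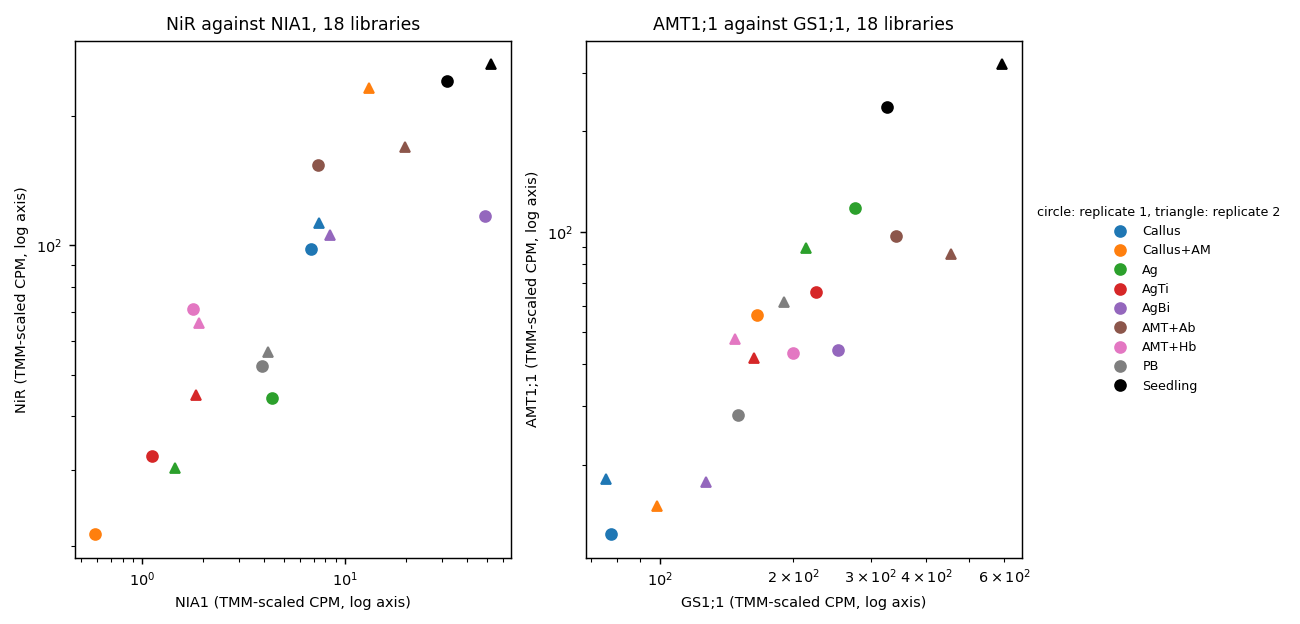
Left, NiR against NIA1, and right, AMT1;1 against GS1;1, in TMM-scaled CPM on log axes, with 1 point per library in 18 libraries, colours for groups, circles for replicate 1 and triangles for replicate 2. In both panels the 2 Seedling libraries lie at the upper right, and the Spearman rho is 0.905 on the left and 0.891 on the right.

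Glutamine synthetase RNA was lower for the plastid gene and 1 of the cytosolic genes. GS2 had the highest FPKM of the 10 genes in all 18 libraries. It ranged between 413 and 1330 CPM in the regenerated libraries (median 624 CPM), against 2510 and 2180 CPM in Seedling, with no overlap. The log2 fold change over all 8 groups was -1.83 (SE 0.216, edgeR adjusted p = 4.55e-05), or 3.55-fold lower, and the call held whichever of the 18 libraries was left out (log2 fold change -1.92 to -1.70). AgBi was highest among the regenerated groups, at 1330 and 1110 CPM. Callus held 928 and 682 CPM, AMT+Ab 869 and 656 CPM, AgTi 508 and 816 CPM, and Ag 684 and 413 CPM. PB held 592 and 443 CPM, Callus+AM 454 and 584 CPM, and AMT+Hb 504 and 506 CPM. Apart from AgBi, the ranges of these groups overlapped at least 1 neighbour in the order of means.

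Against Seedling, GS2 was lower in 7 of the 8 groups, with log2 fold changes between -2.22 in AMT+Hb and -1.54 in Callus, and edgeR adjusted p between 0.000716 and 0.00887. AgBi missed the threshold (-0.95, adjusted p = 0.061). The calls in Callus+AM, Ag, AgTi, AMT+Hb and PB held whichever library was left out. That in Callus ended without Callus replicate 2 (edgeR adjusted p = 0.0803), and that in AMT+Ab without AMT+Ab replicate 2 (edgeR adjusted p = 0.0586). Of all genes tested, 2.73% were called lower in each of the 8 comparisons, and none of the 10 genes was among them.

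GS1;1 encodes a cytosolic glutamine synthetase. Its median over the regenerated libraries was 179 CPM, between 75.4 and 456 CPM, against 326 and 593 CPM in Seedling. Of the 16, 14 lay below both Seedling libraries. The 2 that did not were those of AMT+Ab, at 342 and 456 CPM. Callus was the lowest group, at 77.6 and 75.4 CPM, followed by Callus+AM at 166 and 98.3 CPM. The other 5 groups lay between 127 and 276 CPM. Over all 8 groups the log2 fold change came to -1.36 (SE 0.262, edgeR adjusted p = 0.00167). This call ended without Seedling replicate 2, the higher Seedling library, where the log2 fold change was -0.85 (edgeR adjusted p = 0.129).

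By group the gene was lower in 6 of 8. The largest difference was in Callus, at -2.59 (edgeR adjusted p = 0.00152), and it was the only 1 of the 6 calls that held whichever library was left out. The others were Callus+AM (-1.80), PB (-1.43), AMT+Hb (-1.40), AgBi (-1.27) and AgTi (-1.24), with edgeR adjusted p between 0.00619 and 0.0377. Each of these 5 ended without Seedling replicate 2 and also without Callus+AM replicate 2, PB replicate 1, either AMT+Hb library, AgBi replicate 2 or either AgTi library in its own comparison (edgeR adjusted p 0.0553 to 0.331). Ag (-0.91, adjusted p = 0.0998) and AMT+Ab (-0.20, adjusted p = 0.723) did not pass. The second cytosolic gene, GS1;2, did not pass in any group. Per length it was the lower of the pair, at 3.6 to 20.3 FPKM in the regenerated libraries, where GS1;1 held 54 to 322 FPKM. It ranged between 6.6 and 38.2 CPM in the regenerated libraries (median 14.7 CPM), against 19.2 and 15.6 CPM in Seedling (log2 fold change -0.25, SE 0.399, edgeR adjusted p = 0.657). Its highest level was in AgBi, at 38.2 and 21.5 CPM.

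Added up per length, the 3 glutamine synthetase genes came to 378 to 983 FPKM in the regenerated libraries (median 474 FPKM), against 1700 and 1730 FPKM in Seedling. AgBi replicate 1 was the highest regenerated library. GS2 made up 73.2 ± 10.3% of that sum in the regenerated libraries (SD, n = 16) and 79.7 ± 8.08% in Seedling (SD, n = 2). The difference of -6.54 percentage points did not pass a two-sided exact permutation test over libraries (p = 0.418). It was -0.829 points without Seedling replicate 1 and -12.3 without Seedling replicate 2 (exact permutation p = 0.941 and 0.471). The largest GS2 shares were those of Callus, at 89.5% and 87.0%, and the lowest library was AMT+Ab replicate 2, at 54.2%.

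The 2 kinds of glutamate synthase did not move together. Fd-GOGAT, which takes electrons from ferredoxin in the chloroplast, ranged between 638 and 2920 CPM in the regenerated libraries (median 1290 CPM), against 1880 and 1980 CPM in Seedling. Of the 16, 14 lay below both Seedling libraries, and the 2 AgBi libraries, at 2920 and 2120 CPM, lay above both. The log2 fold change over all 8 groups was -0.61 (SE 0.236), just outside the threshold (edgeR adjusted p = 0.0598). Fd-GOGAT crossed the threshold without AgTi replicate 2 (-0.67), AgBi replicate 1 (-0.64) or AMT+Ab replicate 1 (-0.65). By group it was lower in AMT+Ab (-1.26, adjusted p = 0.0157), AMT+Hb (-1.03, adjusted p = 0.0316) and Ag (-1.04, adjusted p = 0.0336). The AMT+Ab libraries held 974 and 638 CPM, the AMT+Hb libraries 914 and 974 CPM, and the Ag libraries 843 and 1030 CPM. The calls in Ag and AMT+Hb ended without any 1 of the 4 libraries compared (edgeR adjusted p 0.0617 to 0.167), and that in AMT+Ab ended without Seedling replicate 1 or 2 or AMT+Ab replicate 2 (0.0515 to 0.138).

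NADH-GOGAT1, which takes electrons from NADH, was higher in every regenerated library. It ranged between 118 and 457 CPM (median 182 CPM) in the 16 regenerated libraries, against 55.3 and 64.4 CPM in Seedling. The log2 fold change over all 8 groups was 1.82 (SE 0.296, edgeR adjusted p = 0.000492), or 3.54-fold higher, and the call held whichever of the 18 libraries was left out (log2 fold change 1.74 to 1.95). PB held 454 and 276 CPM, AgBi 246 and 457 CPM, Callus+AM 306 and 222 CPM, and AgTi 196 and 312 CPM. These 4 groups overlapped one another. The other 4 groups lay below them. Ag held 169 and 156 CPM, AMT+Ab 166 and 155 CPM, Callus 146 and 147 CPM, and AMT+Hb 132 and 118 CPM.

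Of the 10 genes, NADH-GOGAT1 alone had calls of 1 direction throughout the 8 separate comparisons. These comparisons share the 2 Seedling libraries. Of all genes tested, 2.45% were called higher in each. Its log2 fold change was 2.61 in PB, 2.55 in AgBi, 2.14 in Callus+AM and 2.08 in AgTi, with edgeR adjusted p between 0.000381 and 0.00101, and these 4 calls held whichever library was left out. It was 1.44 in Ag, 1.42 in AMT+Ab, 1.29 in Callus and 1.06 in AMT+Hb, with edgeR adjusted p between 0.00784 and 0.0296. The Ag call ended without Seedling replicate 1 (edgeR adjusted p = 0.0569), the AMT+Ab call without either Seedling library (0.0514 to 0.067), and those of Callus and AMT+Hb without any 1 of the 4 libraries compared (0.0711 to 0.138).

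Of the 2 glutamate synthases, Fd-GOGAT had a lower share in every regenerated library than in either Seedling library. Fd-GOGAT made up 87.5 ± 3.61% of their summed FPKM in the regenerated libraries (SD, n = 16) and 97.5 ± 0.172% in Seedling (SD, n = 2), a difference of -10.0 percentage points. All 16 regenerated libraries, between 81.0% and 93.6%, lay below the Seedling libraries, at 97.7% and 97.4%. A two-sided exact permutation test over the libraries gave p = 0.0131, the smallest it can give, and 0.0393 after Benjamini-Hochberg adjustment over the 3 shares tested. For all 3 shares, the test took the libraries as independent. They come in groups of 2, so these p-values do not measure the spread between groups. With 1 Seedling library left out, the p was 0.118, and 1 library against 16 cannot reach the threshold. In Callus, whose depth matches that of Seedling, the share was 93.2% and 91.9%. PB had the lowest mean share, at 81.0% and 85.1%. The summed FPKM of the pair, 133 to 541 (median 248) in the regenerated libraries against 325 to 348 in Seedling, overlapped.

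**Figure D3:**
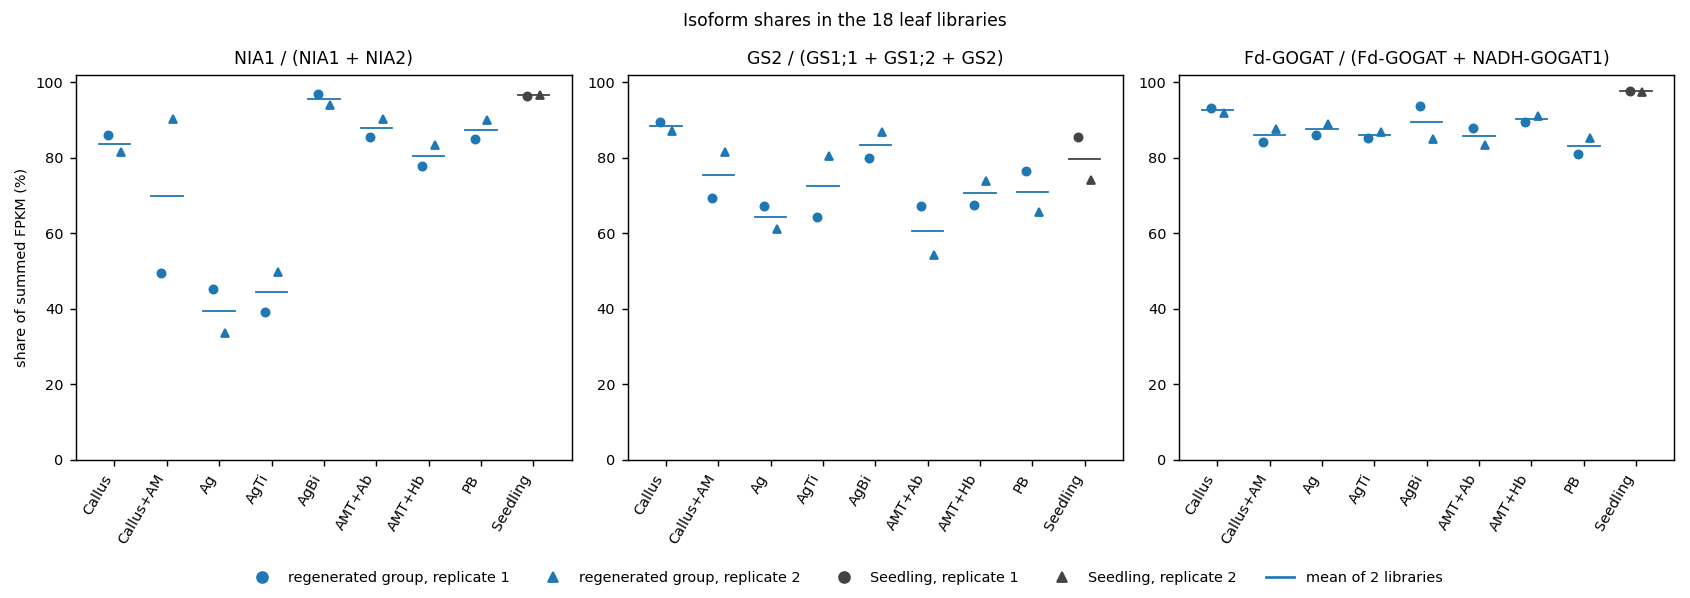
Share (%) of summed FPKM held by NIA1 among the 2 NIA genes, by GS2 among the 3 glutamine synthetase genes and by Fd-GOGAT among the 2 glutamate synthase genes, in the 18 libraries by group, with a line at the mean of the 2 libraries. The Fd-GOGAT share is below both Seedling libraries in all 16 regenerated libraries, and the NIA1 share is below 50% in the Ag and AgTi libraries.

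The same measure for nitrate reductase separated Ag and AgTi from most other groups. NIA1 made up 73.6 ± 21.8% of the summed NIA FPKM in the regenerated libraries (SD, n = 16) and 96.5 ± 0.323% in Seedling (SD, n = 2). Its share was 45.1% and 33.6% in Ag, 39.2% and 49.7% in AgTi, and 49.3% in Callus+AM replicate 1. In the other 11 regenerated libraries it was between 77.7% and 96.8%, and AgBi replicate 1, at 96.8%, was the only regenerated library that was not below both Seedling libraries. The difference of -23.0 percentage points had an exact permutation p of 0.0392 (two-sided), which became 0.0588 after adjustment over the 3 shares and did not pass.

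AS1 had the widest range of the 10 genes. The 16 regenerated libraries lay between 0.641 CPM in AgTi replicate 1 and 412 CPM in Callus+AM replicate 2 (median 26.8 CPM), against 0.116 and 0.396 CPM in Seedling, which rest on 4 and 15 counts. All 16 were above both Seedling libraries. AgBi held 75 and 138 CPM, AMT+Ab 67.6 and 75.4 CPM, and PB 78.5 and 56.5 CPM. In these 3 groups both libraries were high. AMT+Hb held 38.7 and 3.48 CPM, Callus 15 and 4 CPM, AgTi 0.641 and 9.17 CPM, and Ag 8.11 and 0.938 CPM. Callus+AM held 2.06 and 412 CPM, so its mean of 207 CPM rests on replicate 2. The log2 fold change over all 8 groups was 6.77, with a wide SE of 2.13 (edgeR adjusted p = 0.0256). The call ended without Seedling replicate 1 or 2 (edgeR adjusted p 0.139 to 0.165).

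By group, AS1 was called higher in Callus+AM (log2 fold change 9.62), AgBi (8.66), AMT+Ab (8.08), PB (8) and AMT+Hb (6.32), with edgeR adjusted p between 0.0121 and 0.0433. Callus (5.17, adjusted p = 0.114), Ag (4.09, adjusted p = 0.158) and AgTi (4.22, adjusted p = 0.147) did not pass. Without the filter on low counts, only 1 of NADH-GOGAT1 and AS1 was called higher in each of the 5 groups and over all 8. Over all 8 groups that setting called 8718 of 42551 genes, against 9910 of 26374 with the filter. None of the 5 calls survived the loss of either Seedling library, with edgeR adjusted p of 0.0672 to 0.285 over every left-out library that ended a call. Those of Callus+AM, AgBi and AMT+Ab also ended without replicate 2 of their own group, and that of AMT+Hb without AMT+Hb replicate 1. Without Callus+AM replicate 2, the Callus+AM value was 2.98 (edgeR adjusted p = 0.265).

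AMT1;1, the ammonium transporter, ranged between 12.4 and 118 CPM in the regenerated libraries (median 45.9 CPM), against 236 and 318 CPM in Seedling, with no overlap. Its log2 fold change over all 8 groups was -2.61 (SE 0.342, edgeR adjusted p = 0.000109), or 6.12-fold lower, and the call held whichever of the 18 libraries was left out (log2 fold change -2.79 to -2.37). Ag, at 118 and 89.3 CPM, and AMT+Ab, at 97.3 and 85.9 CPM, were the highest regenerated groups and overlapped. Callus, at 12.4 and 18.2 CPM, was the lowest. AgTi held 65.8 and 41.7 CPM, AMT+Hb 43.2 and 47.6 CPM, PB 28.3 and 61.7 CPM, Callus+AM 56.1 and 15.1 CPM, and AgBi 44.2 and 17.8 CPM.

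By group the transporter gene was lower in 6 of 8, with log2 fold changes of -4.18 in Callus, -3.16 in AgBi, -2.96 in Callus+AM, -2.62 in PB, -2.61 in AMT+Hb and -2.37 in AgTi (edgeR adjusted p 0.00123 to 0.0102). AMT+Ab (-1.60, adjusted p = 0.0536) and Ag (-1.42, adjusted p = 0.0789) missed the threshold. The calls in Callus and Callus+AM held whichever library was left out. Those in AgBi, PB and AMT+Hb ended without AgBi replicate 2, PB replicate 1 and AMT+Hb replicate 1, and that in AgTi without Seedling replicate 2 or AgTi replicate 2 (edgeR adjusted p 0.0508 to 0.0946). Over the 18 libraries its level ran with that of GS1;1 (Spearman rho = 0.891), which stood at rank 14 of 26373 genes for AMT1;1, while AMT1;1 stood at rank 5 for it. The most alike genes outside the 10 were LOC_Os10g36980 for AMT1;1 (rho = 0.938) and LOC_Os04g33610 for GS1;1 (rho = 0.944).

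As for NIA1, NiR, GS1;1 and AMT1;1, the nearest neighbour of each remaining gene lay outside the 10. The highest Spearman rho over the 18 libraries was 0.922 for GS2 with LOC_Os02g47020, 0.938 for Fd-GOGAT with LOC_Os01g63230 and 0.917 for NADH-GOGAT1 with LOC_Os03g60090. It was 0.967 for AS1 with LOC_Os10g02040, 0.816 for NIA2 with LOC_Os06g04500 and 0.787 for GS1;2 with LOC_Os04g42090. AMT1;1 and AS1 were the most opposed pair of the 10 (rho = -0.573). As with the other pairs, the points share groups and the Seedling libraries.

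**Figure D4:**
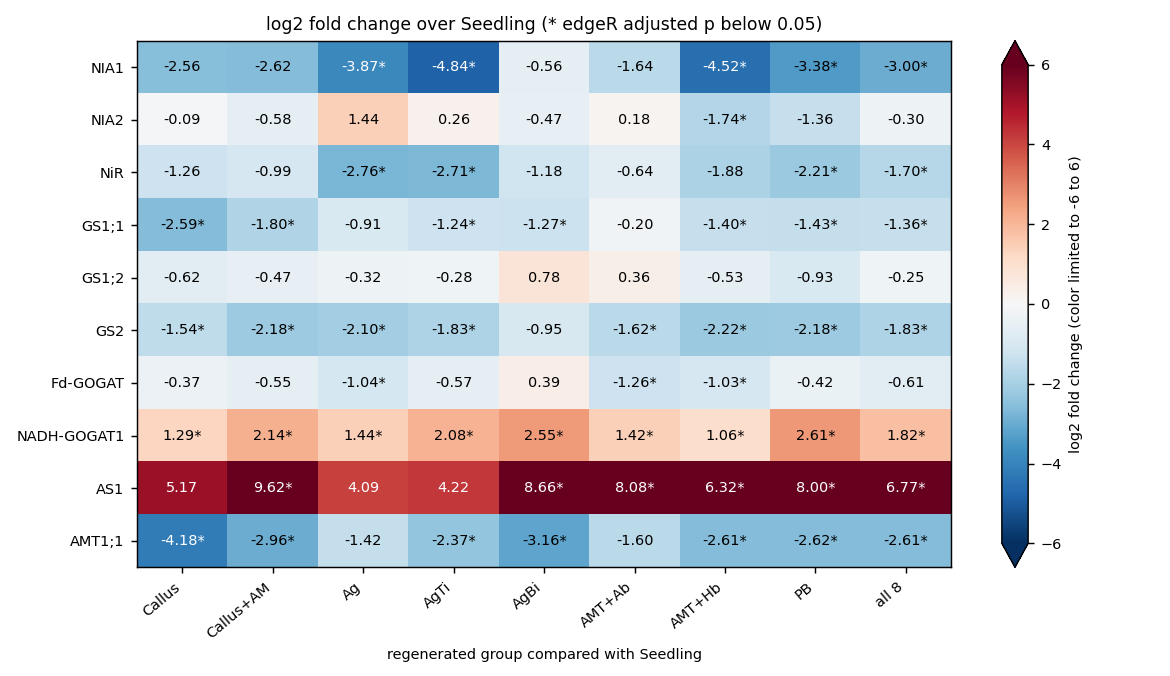
log2 fold change of each of the 10 genes over Seedling in each regenerated group and in all 8 together (columns), with an asterisk where the edgeR adjusted p is below 0.05. Colour runs from blue (lower) to red (higher) and is limited to -6 to 6. NADH-GOGAT1 carries an asterisk in every column and GS1;2 in none.

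Counted by group, the number of the 10 genes called against Seedling lay between 4 and 8. AMT+Hb had 2 higher and 6 lower, against 18.1% and 16.7% of all genes tested. PB had 2 higher and 5 lower (all genes 19.7% and 18.4%), and AgTi had 1 higher and 5 lower (15% and 16.4%). Ag had 1 higher and 4 lower (15.8% and 15.2%), Callus+AM 2 higher and 3 lower (17.4% and 14.1%), and Callus 1 higher and 3 lower (9.3% and 10.1%). AgBi, with 2 higher and 2 lower, had all-gene shares of 11.7% and 11.4%, and AMT+Ab, also with 2 and 2, of 15.7% and 14.9%. Of these 43 calls, 12 held whichever library was left out, and all 43 kept their direction. Those 12 were 5 of GS2, 4 of NADH-GOGAT1, 2 of AMT1;1 and 1 of GS1;1.

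At like depth, Callus against Seedling gave 4 of the 7 differences seen over all 8 groups as calls of their own, namely GS1;1, GS2, NADH-GOGAT1 and AMT1;1. NIA1 (log2 fold change -2.56), NiR (-1.26) and AS1 (5.17) had the same direction in Callus and did not pass. That fit pools the spread of all groups. Fitted with Callus and Seedling alone, 7 of the 10 genes were called, 2 higher and 5 lower. Over all genes, 5943 of 23564 were called there, against 5110 of 26374 in the fit of all groups. Whether depth has a part in the other groups' differences was not tested. Libraries were also scaled by their totals alone, an alternative added after seeing the data. NADH-GOGAT1 and AS1 were again called higher over all 8 groups, and NIA1, NiR, GS1;1, GS2 and AMT1;1 lower. Calls over all genes went up there, to 11770 of 26374, against 9910 with TMM. In that fit GS1;1 stood at a log2 fold change of -0.8 (edgeR adjusted p = 0.0353) and NiR at -1.15 (edgeR adjusted p = 0.0421). NIA2 and GS1;2 then turned to 0.25 and 0.31, again without a call.

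Beside the 10, 22 further identifiers for nitrate and ammonium transport, other isoforms of these enzymes, glutamate dehydrogenase and the NLP factors were listed, and 19 of them were tested. The files and the gene table used here pair none of them with a name, so they are counted and not named. Over all 8 groups, 5 were higher and 3 lower than in Seedling, with a median log2 fold change of -0.21, against 0.07 over all genes. The all-gene shares called in that comparison were 17.1% higher and 20.5% lower. By group, between 3 (Callus and AgTi) and 6 (Callus+AM) were higher and between 2 and 4 were lower, where all-gene shares lay between 9.3% and 19.7% higher and between 10.1% and 18.4% lower. In AgBi against Ag, 3 were higher and 4 lower, against 12.4% and 12.9% of all genes. In PB against the AMT groups, 5 were higher and 3 lower, where 8778 of 26374 genes were called in either direction.

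Whether the treatments differed among regenerated plants was tested across the 8 groups at once, and then step by step. By edgeR's F test, 7 of the 10 genes differed among the 8 groups (NADH-GOGAT1, NIA2, GS1;1, Fd-GOGAT, AMT1;1, NIA1 and GS2, with adjusted p between 0.0111 and 0.0437), against 49.5% of all genes tested. NiR (adjusted p = 0.0949), AS1 (0.0956) and GS1;2 (0.137) did not pass. Only the NADH-GOGAT1 call held whichever of the 16 regenerated libraries was left out. Calls over all genes went up without either Callus+AM library. Without Callus+AM replicate 1 or 2, NiR passed (edgeR adjusted p = 0.000171 and 0.000172), as did AS1 (0.0167 and 0.0313).

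AgBi against Ag had 4 of the 10 genes higher and 2 lower, where 12.4% and 12.9% of all genes were called. Fd-GOGAT had 2920 and 2120 CPM in AgBi, against 843 and 1030 CPM in Ag (log2 fold change 1.42, SE 0.338, edgeR adjusted p = 0.0107). GS2 had 1330 and 1110 CPM in AgBi, against 684 and 413 CPM in Ag (1.15, SE 0.342, adjusted p = 0.028). NADH-GOGAT1 had 246 and 457 CPM in AgBi, against 169 and 156 CPM in Ag (1.11, SE 0.340, adjusted p = 0.0313). These 3 genes encode plastid enzymes of ammonium assimilation. NIA1, with 49 and 8.42 CPM in AgBi against 4.36 and 1.45 CPM in Ag, was higher by 3.31 on the log2 scale (SE 1.13, adjusted p = 0.0487). Lower in AgBi were NIA2, at 1.66 and 0.541 CPM against 5.38 and 2.89 CPM in Ag (-1.91, adjusted p = 0.0341), and AMT1;1, at 44.2 and 17.8 CPM against 118 and 89.3 CPM in Ag (-1.74, adjusted p = 0.0454).

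Each of these 6 calls ended when 1 library or another was left out, which leaves its group with 1 library. Calls over all genes in AgBi against Ag also went down without any 1 of its libraries. The call of Fd-GOGAT ended without replicate 1 of Ag or of AgBi (edgeR adjusted p 0.0543 to 0.0759), GS2 without Ag replicate 2 or either AgBi library (0.0606 to 0.156), and NADH-GOGAT1 without either Ag library or AgBi replicate 2 (0.109 to 0.28). NIA1 ended without either Ag library or AgBi replicate 1 (0.104 to 0.379), NIA2 without Ag replicate 1 or AgBi replicate 2 (0.191 to 0.201), and AMT1;1 without either Ag library or AgBi replicate 2 (0.0777 to 0.253). All 6 kept their direction. Fitted with these 2 groups alone, 0 of these 6 passed (edgeR adjusted p 0.0551 to 0.204) and NiR was called higher in AgBi (1.61, edgeR adjusted p = 0.0376). Calls over all genes also went down in that fit, to 2395 of 23474 genes, against 6684 of 26374 in the fit of all groups. With library totals in place of TMM, 3 of the 6 were called, Fd-GOGAT higher and NIA2 and AMT1;1 lower. Calls over all genes went up in that setting, to 7273 of 26374.

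PB against the equal-weight mean of the 2 AMT groups gave 1 call. NADH-GOGAT1 had 454 and 276 CPM in PB, against 166 and 155 CPM in AMT+Ab and 132 and 118 CPM in AMT+Hb (log2 fold change 1.37, SE 0.281, edgeR adjusted p = 0.00388), where 17.4% of all genes were called higher. The call ended without PB replicate 1 (0.96, edgeR adjusted p = 0.075). Fd-GOGAT, at 1580 and 1290 CPM in PB against 974 and 638 CPM in AMT+Ab and 914 and 974 CPM in AMT+Hb, was just short of the threshold (0.72, adjusted p = 0.0658).

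The other 4 steps gave no member call in edgeR. In Callus+AM against Callus, 0.792% of all genes were called and 0 of the 10, with 2 of the 10 and 5429 of the 26374 genes at an unadjusted p below 0.05, and the DESeq2 Wald test called 2746 of all genes. In Ag against Callus+AM, 0% of all genes and 0 of the 10 were called, with 5 of the 10 and 3406 of all genes at an unadjusted p below 0.05, and DESeq2 called 271 of all genes. In AgTi against Ag, 0% of all genes and 0 of the 10 were called, 0 of the 10 and 1591 of all genes had an unadjusted p below 0.05, and DESeq2 called 68 of all genes. In AMT+Ab against AMT+Hb, 6.42% of all genes and 0 of the 10 were called, with 3 of the 10 and 5613 of all genes at an unadjusted p below 0.05. There DESeq2 called 3017 of 42551 genes, and 3 of the 10, NIA1, NIA2 and GS1;1, each higher in AMT+Ab. The Callus+AM libraries, 11-fold apart for NiR, each decided its value in 2 of these steps. Calls over all genes also went up without either of them in Callus+AM against Callus. In Ag against Callus+AM they went up without replicate 1 and did not change without replicate 2. In Callus+AM against Callus, NiR was at 0.27 with both (edgeR adjusted p = 0.873), passed at -2.30 without replicate 2 (edgeR adjusted p = 0.00556) and passed the other way at 1.13 without replicate 1 (edgeR adjusted p = 0.0338). In Ag against Callus+AM, NiR was at -1.77 with both (edgeR adjusted p = 0.358), at 0.80 without replicate 2 (edgeR adjusted p = 0.628) and passed at -2.63 without replicate 1 (edgeR adjusted p = 0.00168). Without Callus+AM replicate 1, AMT1;1 also passed in Ag against Callus+AM, at 2.80 (edgeR adjusted p = 0.0371).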

How the data were processed

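RNA-seq of 18 rice leaf libraries was used. The authors deposited estimated counts per gene and FPKM values. Per the submitters' processing notes, the tools included TopHat, Cuffnorm and Cuffdiff. The sources used here do not give the genome build, annotation, strand setting or versions. Counts were rounded, since 0.707% were not whole. The genes and lists were chosen with earlier results of these data known. All 10 genes are named whatever their values, each with the closest other gene by Spearman rho.

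Counts were filtered (filterByExpr by group), TMM-scaled and fitted in edgeR 4.0.16 (R 4.3.3) by robust quasi-likelihood with 1 coefficient per group over the 18 libraries (9 residual degrees of freedom, common dispersion 0.146). The 15 comparisons and the F test among regenerated groups were each adjusted over 26374 genes. The 9 groups of 2 libraries share 1 estimate of spread per gene. A p-value therefore also reflects the spread within groups that are not compared. None of the 9 within-group library pairs looked like duplicates. The tests were checked on simulated data. Levels between genes were compared by FPKM.

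Alternatives were RLE size factors, no count filter, DESeq2 1.42.0, limma 3.58.1 on log2(FPKM + 1) at a mean FPKM of 1 or more, fits of the compared groups alone, the replicate block, and leaving out each library (the lone library left in a group is then assumed as variable as the rest). Library totals without TMM were added after seeing the data. In leaving out 1 library, each comparison was refitted only without libraries of its own groups.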

Additional observations from a re-analysis of the deposited data

Results flagged for a closer look

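By edgeR's F test (adjusted over 26374 genes), 7 of the 10 genes differed among the 8 regenerated groups, so that the differences of the groups from Seedling were not alike. The adjusted p was 0.0111 for NADH-GOGAT1, 0.0132 for NIA2, 0.0133 for GS1;1, 0.0188 for Fd-GOGAT, 0.0279 for AMT1;1, 0.0376 for NIA1 and 0.0437 for GS2. Against this, 49.5% of all genes differed by the same rule. NADH-GOGAT1 was highest by group mean in PB and AgBi, Fd-GOGAT, GS2 and NIA1 in AgBi, NIA2 and AMT1;1 in Ag, and GS1;1 in AMT+Ab. The call ended for NIA2 without Ag replicate 1 (edgeR adjusted p = 0.0602), for Fd-GOGAT without AgBi replicate 1 (0.0784), and for GS1;1 without Callus replicate 2 or AMT+Ab replicate 2 (0.0533 to 0.0663). It ended for AMT1;1 without any 1 of Callus replicate 1 or 2, Ag replicate 1, AMT+Ab replicate 1 or 2 and AMT+Hb replicate 1 (0.0518 to 0.0915). GS2 lost its call without 10 of the 16 libraries (0.0565 to 0.155), which were both libraries of Callus, AgBi, AMT+Ab, AMT+Hb and PB. NIA1 lost its call without 12 of the 16 (0.052 to 0.139), which were all but both Callus+AM libraries, Ag replicate 1 and AgBi replicate 2.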

How the results depend on the processing

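The 2 libraries of a group limit every call, and depth limits NIA2 and the Seedling level of AS1, which rest on few counts. The numbers below are counts of the 10 genes called, or of 9 in limma, where NIA2 fell below the FPKM minimum, and the causes of the shifts were not tested. Relative log expression size factors, the DESeq2 Wald test and limma each called 2 genes in PB against the AMT groups, where edgeR called 1. DESeq2 also called 3 in AMT+Ab against AMT+Hb, where edgeR called 0, and 3017 of 42551 genes in all, against 1692 of 26374. Without a filter on low counts, with more genes in the adjustment, 3 were called in Ag against Seedling (5 with it), 5 in AMT+Hb (8 with it) and 4 in PB (7 with it). Calls over all genes went to 6614, 7515 and 8483 of 42551, against 8187, 9182 and 10058 of 26374. Over all 8 groups and in Callus+AM, AgBi, AMT+Ab, AMT+Hb and PB, 1 was then called higher against Seedling, where 2 were with the filter. Over all 8 groups 8718 of 42551 genes were called there, against 9910 of 26374. Fitting only the groups compared called 7 in Callus against Seedling (4 in the full fit), 2 in Callus+AM against Seedling (5), 1 in AgBi against Ag, NiR (6 in the full fit, NiR not among them), 4 in AMT+Ab against AMT+Hb (0) and 3 in PB against the AMT groups (1). Calls over all genes shifted in the same fits, to 5943 of 23564 in Callus against Seedling (5110 of 26374 in the full fit), 2429 of 23744 in Callus+AM against Seedling (8288), 2395 of 23474 in AgBi against Ag (6684), 2745 of 23524 in AMT+Ab against AMT+Hb (1692) and 10314 of 24868 in PB against the AMT groups (8778).

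Library totals without TMM called 5 in AMT+Hb against Seedling (8 with TMM) and 3 in AgBi against Ag (6 with TMM). Calls over all 26374 genes went up there, to 11575 (9182 with TMM) and 7273 (6684 with TMM). In that setting NIA2 and GS1;2 reversed to log2 fold changes of 0.25 and 0.31 over all 8 groups, neither called. NiR reversed in Callus+AM against Callus to -0.58 in limma and to -2.3 without Callus+AM replicate 2 (1.13 without replicate 1), and in Ag against Callus+AM to 0.8 without Callus+AM replicate 2 (-2.63 without replicate 1).

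Leaving out 1 library at a time gave 3 to 8 calls over all 8 groups against Seedling, the lowest without Seedling replicate 2. The range was 2 to 3 for Callus against Seedling, 3 to 5 for Callus+AM, 2 to 3 for Ag, 2 to 6 for AgTi, 1 to 4 for AgBi, 1 to 4 for AMT+Ab, 1 to 4 for AMT+Hb and 3 to 5 for PB. Among regenerated groups it was 0 to 1 for Callus+AM against Callus, 0 to 2 for Ag against Callus+AM, 1 to 3 for AgBi against Ag and 0 to 2 for PB against the AMT groups. For a difference among the 8 regenerated groups it was 3 to 9. Calls over all genes also went down in each single group against Seedling, whichever compared library was left out. They did so too in AgBi against Ag and in PB against the AMT groups. In Callus+AM against Callus and in the test among the 8 regenerated groups they went both ways. Over all 8 groups against Seedling they went down without either Seedling library, lowest without replicate 2. Without a regenerated library they went both ways there. In Ag against Callus+AM they went up without Callus+AM replicate 1 and did not change otherwise. The GS2 share differed by -12.3 to -0.829 percentage points, without a call, the extremes being without 1 Seedling library. The Fd-GOGAT share differed by -10.4 to -9.56 percentage points and the NIA1 share by -24.5 to -20.3, and both missed p of 0.05 in exact permutation tests without 1 Seedling library (p = 0.118 and 0.235), where the design cannot reach it.

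Same-numbered libraries did not deviate together (correlations of -0.47 to 0.26 over 36 pairs of groups, 9 of them over 0.1), so the numbers were not taken to pair samples. With the replicate number as a block, 6 calls ended by edgeR adjusted p and all kept their direction. They were NIA2 (0.0584) and AS1 (0.0594) in AMT+Hb against Seedling, NIA1 (0.0601) and AMT1;1 (0.052) in AgBi against Ag, and the differences of NIA1 (0.0542) and GS2 (0.0587) among the 8 groups. Calls over all 26374 genes also went down with the block. They were 8478 in AMT+Hb against Seedling (9182 without it), 5970 in AgBi against Ag (6684) and 11102 among the 8 groups (13050).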
